A study of Rattus norvegicus with 40 samples.

Results

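The genes described here encode the interchangeable catalytic subunits of the 20S proteasome and a set of its activators, in rat beta-cell line cultures with and without inflammatory cytokines. They were chosen by name from the gene symbols of the array: the inducible catalytic subunits Psmb8, Psmb9 and Psmb10, the activator subunits Psme1 and Psme2 (together called the inducible members below), the standard catalytic subunits Psmb5, Psmb6 and Psmb7, and the nuclear activator subunit Psme3 (the standard members). Of these 9 genes, 8 had a named probe set, 4 of the 5 inducible members and 4 of the 4 standard members, among 16587 genes in all. Psme2 was not analysed here. INS-1E cells, labelled INS1, are an insulin-secreting line derived from a rat insulinoma, and were profiled on Affymetrix Rat ST arrays. There were 25 cytokine arrays, from cells exposed to recombinant human IL-1 at 10 units/ml plus recombinant murine IFN-γ at 100 units/ml, in pairs at 12 of the times and alone at 10 h. Against them stood 15 control arrays from medium without cytokines, a pair each at 0 h and 1 h and single arrays at the remaining 11 times. Both groups were sampled at 0, 1, 2, 4, 6, 8, 10, 12, 24, 36, 48, 60 and 72 h. All values are log2 signals, so a difference of 1 is a doubling, and the levels of different members were not set against each other.

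The proteasome degrades ubiquitin-tagged proteins inside a barrel of alpha and beta subunit rings, and its peptide-cutting sites sit on beta subunits. Interferon-γ is known to induce alternative beta subunits that replace the standard ones in newly built particles, Psmb8 (beta5i, LMP7) in place of Psmb5, Psmb9 (beta1i, LMP2) in place of Psmb6, and Psmb10 (beta2i, MECL-1) in place of Psmb7. The resulting immunoproteasome yields more peptides that suit MHC class I. Psme1 and Psme2 encode the PA28 alpha and beta subunits, which form a cap on the core particle in the cytoplasm, while Psme3 encodes PA28 gamma, a nuclear cap. Presentation of peptides on MHC class I is what makes beta cells visible to cytotoxic T cells in type 1 diabetes.

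Psmb8 and Psmb9 lie close together in the MHC region of rat chromosome 20. In the RefSeq gene table of the assembly GRCr8, Tap1, a peptide transporter gene, is the gene between them, and Tap2 lies on the other side of Psmb8. Psmb10 is on chromosome 19, and Psme1 and Psmb5 are on chromosome 15, where Psme2 lies past Emc9, the next gene after Psme1. Promoters of all 8 measured genes were found in RefSeq's GRCr8 table, each running from 250 bases before to 50 bases after the annotated start. They were searched on both strands for the interferon-stimulated response element core (GAAA, any 2 bases, GAAA), the gamma-activated site core TTCNNNGAA, the NF-kB consensus, and the antioxidant response element core TGACNNNGC. These 300-base windows are shown for the 4 inducible members, whose signals moved together, and for Psmb5, the standard counterpart of Psmb8. Capitals mark the matches.
Psmb8, chr20:4656982-4657281, minus strand: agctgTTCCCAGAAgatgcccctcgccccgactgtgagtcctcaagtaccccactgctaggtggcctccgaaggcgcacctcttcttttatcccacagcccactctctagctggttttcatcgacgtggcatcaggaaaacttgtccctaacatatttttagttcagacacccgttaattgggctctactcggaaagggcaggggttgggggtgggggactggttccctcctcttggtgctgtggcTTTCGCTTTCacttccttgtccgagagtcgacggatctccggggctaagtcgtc
Psmb9, chr20:4668750-4669049, plus strand: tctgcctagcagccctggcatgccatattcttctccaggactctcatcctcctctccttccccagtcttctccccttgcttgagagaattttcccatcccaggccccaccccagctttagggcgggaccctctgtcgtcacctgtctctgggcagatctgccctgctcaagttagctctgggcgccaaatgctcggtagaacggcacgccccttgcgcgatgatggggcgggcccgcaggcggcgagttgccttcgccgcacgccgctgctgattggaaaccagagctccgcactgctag
Psmb10, chr19:50743243-50743542, minus strand: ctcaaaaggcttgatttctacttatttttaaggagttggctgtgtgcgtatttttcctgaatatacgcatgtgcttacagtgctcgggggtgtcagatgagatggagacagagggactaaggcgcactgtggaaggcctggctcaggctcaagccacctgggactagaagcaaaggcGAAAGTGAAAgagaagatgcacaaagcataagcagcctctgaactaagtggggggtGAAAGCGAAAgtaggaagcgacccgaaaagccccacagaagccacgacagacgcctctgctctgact
Psme1, chr15:33038721-33039020, plus strand: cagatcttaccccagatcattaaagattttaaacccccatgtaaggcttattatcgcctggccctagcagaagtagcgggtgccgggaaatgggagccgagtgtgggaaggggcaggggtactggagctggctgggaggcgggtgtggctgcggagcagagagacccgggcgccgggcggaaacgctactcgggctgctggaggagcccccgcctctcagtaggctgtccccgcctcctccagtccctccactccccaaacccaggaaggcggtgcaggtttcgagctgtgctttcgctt
Psmb5, chr15:32047330-32047629, minus strand: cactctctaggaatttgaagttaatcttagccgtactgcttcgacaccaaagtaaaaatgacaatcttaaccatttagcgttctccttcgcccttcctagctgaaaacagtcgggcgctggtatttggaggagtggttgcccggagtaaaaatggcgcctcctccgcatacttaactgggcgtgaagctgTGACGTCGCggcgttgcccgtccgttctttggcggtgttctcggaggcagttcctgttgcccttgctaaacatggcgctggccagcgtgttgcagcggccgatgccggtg

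The Psmb8 window held 1 interferon-stimulated response element core, TTTCGCTTTC, which reads as the motif on the opposite strand and begins 4 bases before the start. It also held a gamma-activated site core, TTCCCAGAA, which begins 245 bases before the start. This stretch matches on both strands, since the pattern TTCNNNGAA reads the same on each. Psmb10 held 2 interferon-stimulated response element cores, GAAAGTGAAA beginning 73 bases and GAAAGCGAAA beginning 17 bases before the start. None of the 4 motifs was found in the windows of Psmb9, Psme1, Psmb7 or Psme3, which says only that these letters are not there. The Psme1 window ends in tttcgctt, the letters that open the Psmb8 match, and bases past the window's end were not searched. Psmb5 held an antioxidant response element core, TGACGTCGC, beginning 60 bases before the start, and Psmb6 held another, TGACGGAGC, beginning 24 bases before it. Among all 33469 promoters of that length, 3.92% held the interferon-stimulated response element core, 8.87% the gamma-activated site core, 4.18% the NF-kB consensus and 12.1% the antioxidant response element core.

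The arrays resembled one another in scale, with medians between 6.54 and 6.62. Markers of pancreatic beta cells were bright: the mean over 7 of 10 listed markers (Ins1, Ins2, Iapp, Nkx6-1, Slc30a8, Pcsk1 and Slc2a2) lay between 11.40 and 12.11 on cytokine arrays and between 11.84 and 12.16 on control arrays. Late, limma called 6 of the 7 lower, where 4.22% of all genes were called lower. Their differences ran from -1.18 in Pcsk1 to -0.30 in Ins1, and Slc2a2 (0.06) was not called. Markers of leukocytes, which carry abundant immunoproteasome, were dim: the mean over 10 of 11 listed markers lay between 4.41 and 4.75 on cytokine arrays and between 4.41 and 4.76 on control arrays, under the 25th percentile of every array (4.83 to 5.10). Of these 10, limma called 0 in each window (0, 0 and 1 at an unadjusted p under 0.05 in the early, intermediate and late windows). The shares of all genes called were 1.49%, 9.05% and 8.73%, and a count of 0 among 10 is near them. Among 5 markers of other islet endocrine cells, Gcg fell by 2.80 late and was called. Irx2 (-0.15), Sst (-0.03), Hhex (0.08) and Ppy (0.16) were not called. Of 5 acinar and duct markers Krt7 rose by 0.45 late and was called, where 4.51% of all genes were called higher. Prss1 (-0.20), Cela1 (-0.10), Cpa1 (-0.11) and Krt19 (0.04) were not called. In bulk RNA a change in the cells present and a change per cell cannot be told apart. No control array after 1 h is a replicate 2 array, so a shift between replicate numbers is in part mixed with the treatment difference, and each additive model on replicate 1 arrays, which fits treatment and time on those arrays of a window, is named where it ended a window's call of a gene described below.

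With cytokines, the 4 measured inducible members rose and the 4 standard members did not pass the test in any window. In the intermediate window, the average over 6, 8, 10 and 12 h, Psmb9 was 19.8-fold and Psmb8 15.7-fold higher than in control arrays, Psmb10 was 5.91-fold and Psme1 3.37-fold higher. All 4 inducible members were called in that window by limma with Benjamini-Hochberg adjustment over all genes, at an adjusted p under 0.05, where 4.94% of all genes were called higher and 4.11% lower. limma called 0 of the 4 standard members in it, and 0 had an unadjusted p under 0.05, where 9.05% of all genes were called in either direction. A count of 0 among 4 is near that share. The differences of these 4 lay between -0.19 and 0.28. The median difference was 3.27 over the inducible members and -0.11 over the standard ones, against -0.03 over all genes.

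**Figure D1:**
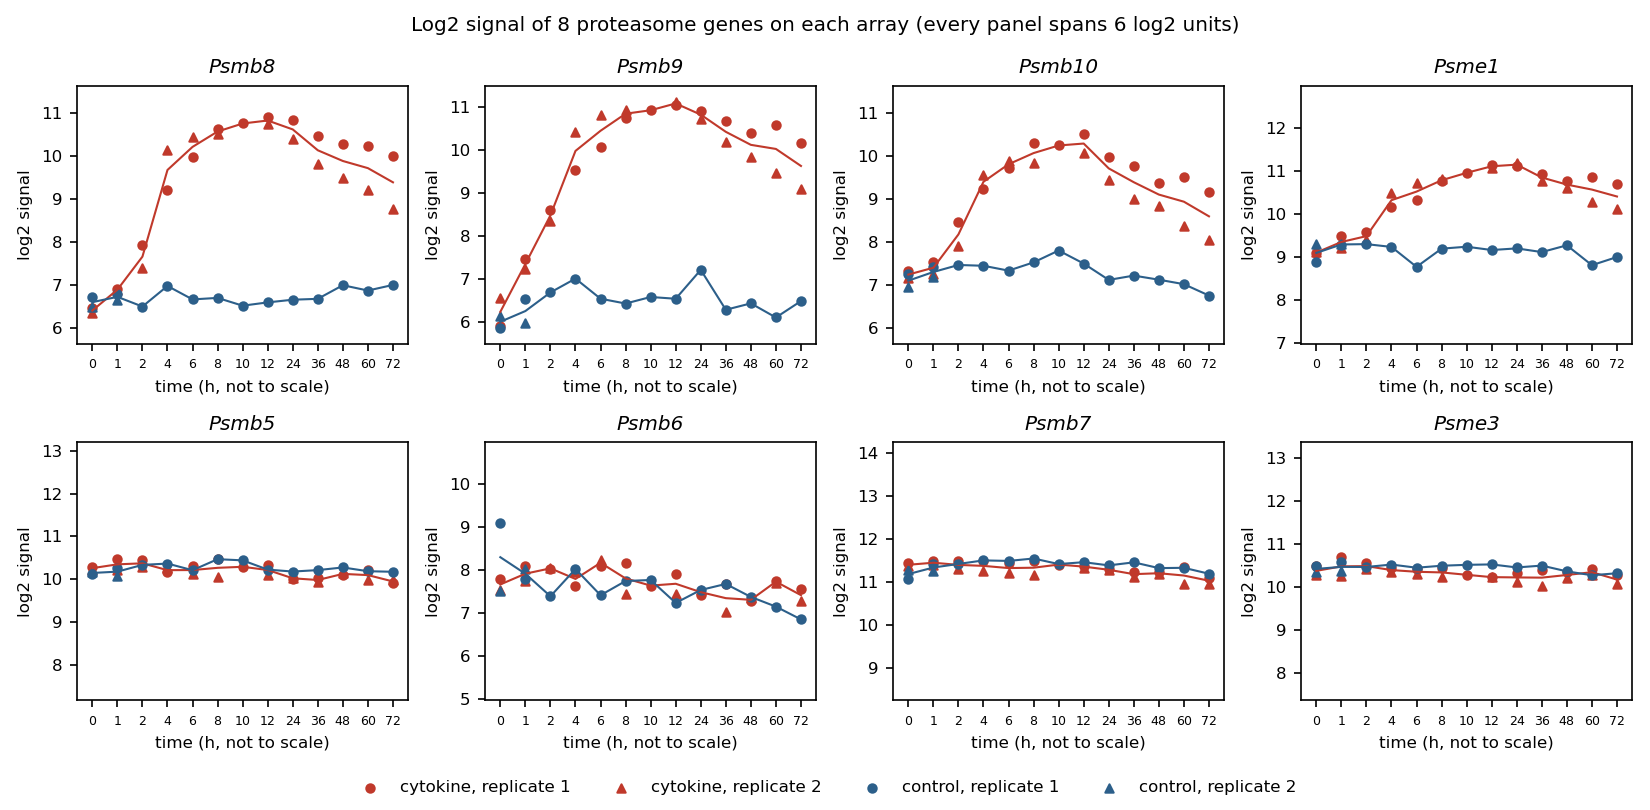
Log2 signal of the 4 inducible members (upper row) and the 4 standard members (lower row) on each of the 40 arrays against time in hours, with cytokine arrays in red, control arrays in blue, circles for replicate 1, triangles for replicate 2 and lines through the mean of each time. From 4 h on, all cytokine arrays of the inducible members lie above all control arrays, while for the standard members the colours overlap.

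Psmb8, whose product carries the chymotrypsin-like site, was near its control level for the first hour (replicate 1 is given before replicate 2 wherever 2 arrays share a time). At 0, 1, 2 and 4 h the cytokine arrays gave 6.47 and 6.36, then 6.91 and 6.88, then 7.93 and 7.40, then 9.23 and 10.14. At 6, 8, 10 and 12 h the cytokine arrays gave 10.00 and 10.44, then 10.63 and 10.52, then 10.76, then 10.92 and 10.75. Late, at 24, 36, 48, 60 and 72 h the cytokine arrays gave 10.85 and 10.40, then 10.47 and 9.81, then 10.29 and 9.49, then 10.24 and 9.21, then 10.02 and 8.77. The signal thus stood highest between 8 and 24 h and was lower by 72 h, most of all on the replicate 2 arrays. Control arrays gave 6.72 and 6.50, then 6.80 and 6.66 at 0 and 1 h, and single control arrays gave 6.50, 6.98, 6.67, 6.71, 6.52 and 6.60 from 2 to 12 h. Late control arrays gave 6.66, 6.68, 7.00, 6.88 and 7.01, in order of time. No control array exceeded 7.01, and every cytokine array from 4 h on was at 8.77 or more. The difference reached 4.24 (18.9-fold) at 10 h and was 2.39 (5.23-fold) at 72 h. Averaged by window it was 1.34 early (1, 2 and 4 h; SE 0.25, limma adjusted p = 0.00358), 3.97 intermediate (SE 0.24, adjusted p = 1.11e-10) and 3.11 late (24 to 72 h; SE 0.20, adjusted p = 1e-09). The early call rested on 4 h: leaving out the control 4 h array, which drops that time, gave 0.66 (limma adjusted p = 0.588). An additive model on the early arrays alone also lost it (1.17, adjusted p = 0.453), as did that model on replicate 1 arrays (1.26, adjusted p = 0.579).

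Psmb9, whose product replaces the caspase-like site of Psmb6, had the largest difference of the 4 in each window. At 0, 1, 2 and 4 h the cytokine arrays gave 5.90 and 6.56, then 7.46 and 7.22, then 8.59 and 8.35, then 9.52 and 10.42. At 6, 8, 10 and 12 h the cytokine arrays gave 10.07 and 10.81, then 10.75 and 10.93, then 10.92, then 11.04 and 11.11. Late, at 24, 36, 48, 60 and 72 h the cytokine arrays gave 10.91 and 10.72, then 10.66 and 10.17, then 10.38 and 9.84, then 10.57 and 9.47, then 10.17 and 9.08. Already at 1 h both cytokine arrays exceeded both control arrays, by 1.10 on average, which did not pass the test over all genes (unadjusted p = 0.00815). Control arrays gave 5.85 and 6.14, then 6.53 and 5.96 at 0 and 1 h, and single control arrays gave 6.68, 7.00, 6.53, 6.42, 6.57 and 6.53 from 2 to 12 h. Late control arrays gave 7.20, 6.28, 6.42, 6.10 and 6.48, in order of time. The control arrays spanned 5.85 to 7.20 and stayed below every cytokine array from 1 h on. The difference was largest at 12 h, at 4.54 (23.3-fold), and was 3.14 (8.84-fold) at 72 h. By window it was 1.95 early (SE 0.25, limma adjusted p = 4.06e-05), 4.30 intermediate (SE 0.24, adjusted p = 3.15e-11) and 3.70 late (SE 0.20, adjusted p = 6.57e-11). The early call was lost on replicate 1 arrays with the additive model (1.79, adjusted p = 0.0897).

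Psmb10 replaces Psmb7 at the trypsin-like site. At 0, 1, 2 and 4 h the cytokine arrays gave 7.33 and 7.16, then 7.54 and 7.27, then 8.46 and 7.90, then 9.24 and 9.57. At 6, 8, 10 and 12 h the cytokine arrays gave 9.73 and 9.89, then 10.30 and 9.84, then 10.25, then 10.51 and 10.08. Late, at 24, 36, 48, 60 and 72 h the cytokine arrays gave 9.98 and 9.45, then 9.77 and 9.01, then 9.37 and 8.84, then 9.51 and 8.37, then 9.16 and 8.04. Cytokine arrays from 4 h on were all at 8.04 or more, above every control array. Control arrays gave 7.26 and 6.94, then 7.42 and 7.19 at 0 and 1 h, and single control arrays gave 7.47, 7.45, 7.34, 7.53, 7.80 and 7.50 from 2 to 12 h. Late control arrays gave 7.12, 7.22, 7.12, 7.02 and 6.76, in order of time. The early difference of 0.92 (SE 0.24) did not pass the test (limma adjusted p = 0.0571), though it did with the arrays centred on their medians (adjusted p = 0.0485) and with the dimmest genes left out, which kept 11058 genes (0.0452). Without the control 4 h array it was 0.41 (limma adjusted p = 0.742), and the additive models gave 0.80 on the early arrays (adjusted p = 0.556) and 0.97 on replicate 1 arrays (0.649). It was 2.56 in the intermediate window (SE 0.23, adjusted p = 4.54e-08) and 2.10 in the late window (SE 0.19, adjusted p = 1.61e-07). The largest single difference was 2.79 (6.93-fold) at 12 h. In control arrays the signal was 0.44 lower late than at 1 to 12 h (unadjusted p = 0.0455, limma adjusted p = 0.319). limma called 0 of the 8 measured members in that comparison of control arrays (this 1 at an unadjusted p under 0.05), where 1.2% of all genes were called.

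Psme1, the PA28 alpha subunit, had the smallest difference of the 4 inducible members in each window. At 0, 1, 2 and 4 h the cytokine arrays gave 9.08 and 9.11, then 9.47 and 9.21, then 9.57 and 9.39, then 10.15 and 10.48. At 6, 8, 10 and 12 h the cytokine arrays gave 10.32 and 10.71, then 10.75 and 10.80, then 10.95, then 11.14 and 11.06. Late, at 24, 36, 48, 60 and 72 h the cytokine arrays gave 11.10 and 11.18, then 10.92 and 10.76, then 10.76 and 10.59, then 10.85 and 10.27, then 10.70 and 10.10. From 4 h on the cytokine arrays, at 10.10 or more, did not overlap the control arrays, whose highest was 9.30. Control arrays gave 8.87 and 9.30, then 9.28 and 9.29 at 0 and 1 h, and single control arrays gave 9.29, 9.23, 8.76, 9.19, 9.23 and 9.15 from 2 to 12 h. Late control arrays gave 9.19, 9.11, 9.26, 8.80 and 8.99, in order of time. The difference was 0.44 early (SE 0.13, limma adjusted p = 0.141), 1.75 intermediate (SE 0.13, adjusted p = 2.08e-09) and 1.65 late (SE 0.11, adjusted p = 1e-09). Without the control 4 h array the early difference was 0.12 (adjusted p = 0.881). It was 1.95 (3.86-fold) at 12 h and 1.41 (2.65-fold) at 72 h.

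At single times, limma called 0 of the 4 inducible members at 0 h (0 at an unadjusted p under 0.05), 0 at 1 h (1, Psmb9) and 0 at 2 h (2, Psmb8 at 1.16 and Psmb9 at 1.79). In those comparisons 0%, 0.102% and 0.531% of all genes were called higher. All 4 were called at 4 h, where 1.48% of genes were called higher, and at 6, 8, 10, 12, 24, 36, 48 and 60 h, where the shares were 1.73%, 1.71%, 1.62%, 1.78%, 1.63%, 0.874%, 0.549% and 0.464%. At 72 h, with 0.525% of genes called higher, 3 of 4 were called and Psmb10 was not (1.84, limma adjusted p = 0.0524). At 4 h the calls of Psmb10 and Psme1 were lost without the cytokine replicate 2 array (adjusted p = 0.124 and 0.160). Psmb10 at 60 h (1.92, adjusted p = 0.0474) lost its call in 19 of 39 fits that each left out 1 array. At 36 h Psmb10 (2.17) was 1.79 without the cytokine replicate 1 array, where its call was lost, and 2.55 without the replicate 2 array. The differences at single times were not tested against each other. Of the 4 standard members limma called 0 at each of the 13 times (0 at an unadjusted p under 0.05), where the share of genes called in either direction was 0%, 0.102%, 0.561%, 1.62%, 1.93%, 1.87%, 1.89%, 2.24%, 2.15%, 1.22%, 0.711%, 0.555% and 0.742% in order of time. Counts of 0 among 4 are near these shares.

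The cytokine arrays from 4 to 72 h (n = 19) and all control arrays (n = 15) did not overlap for any of the 4 inducible members, with the cytokine arrays higher. Among all genes 1.01% were separated that way and 0.127% in the opposite direction. For the 4 standard members the groups overlapped. The rise between windows was tested as well. The cytokine minus control difference of the intermediate window exceeded that of the early window in 4 of 4 inducible members, by 2.63 in Psmb8, 2.35 in Psmb9, 1.64 in Psmb10 and 1.31 in Psme1 (limma adjusted p = 0.000163, 0.000503, 0.00962 and 0.000323). In that contrast 1.07% of all genes were called higher. Without the control 2 h array the adjusted p of Psmb10 was 0.0549. From the intermediate to the late window the differences of the 4 genes changed by -0.86 (Psmb8), -0.60 (Psmb9), -0.46 (Psmb10) and -0.10 (Psme1). limma called 0 of 4 (1 at an unadjusted p under 0.05, Psmb8, with adjusted p = 0.205), where 1.43% of all genes were called lower.

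**Figure D2:**
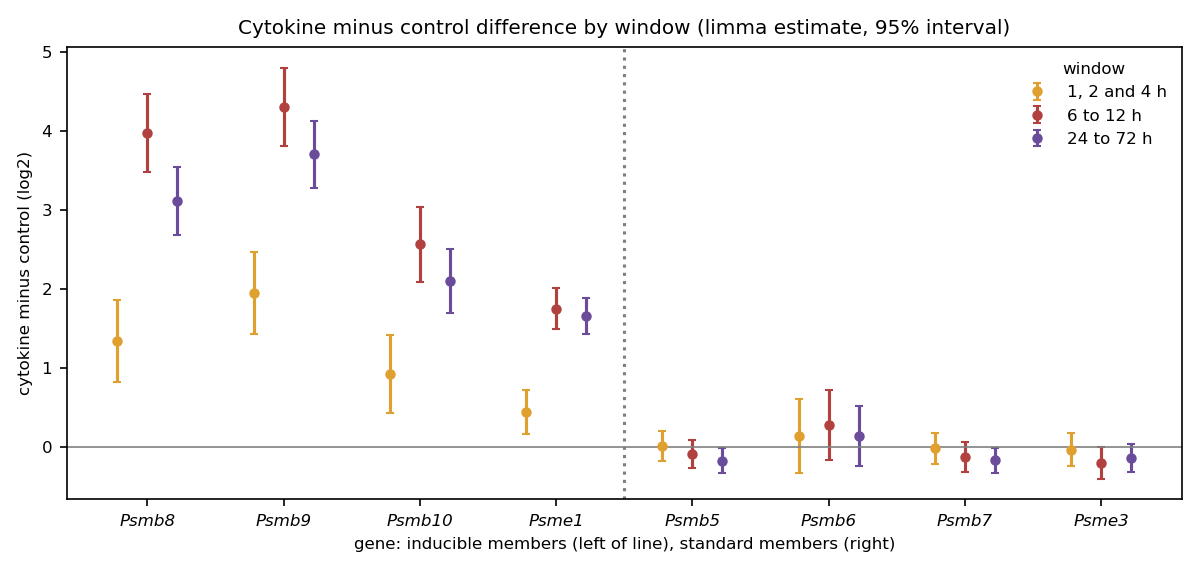
Cytokine minus control difference in log2 units for each gene in the windows of 1, 2 and 4 h, 6 to 12 h and 24 to 72 h, as the limma estimate with its 95% interval. The inducible members, left of the dotted line, lie at 1.75 to 4.30 at 6 to 12 h, and the standard members, right of it, lie between -0.19 and 0.28.

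The standard catalytic subunits stayed close to their control levels. Psmb5, the counterpart of Psmb8, ran from 9.91 to 10.48 over the 25 cytokine arrays (median 10.18), against 10.09 to 10.47 over the 15 control arrays (median 10.22). Its differences were 0.02 early (95% interval -0.17 to 0.21), -0.09 intermediate (-0.27 to 0.09) and -0.17 late (-0.33 to -0.02, unadjusted p = 0.0322, limma adjusted p = 0.188). Psmb7, the counterpart of Psmb10, ran from 10.96 to 11.50 on cytokine arrays (median 11.31), against 11.08 to 11.55 on control arrays (median 11.42). It differed by -0.01 early (-0.21 to 0.18), -0.12 intermediate (-0.31 to 0.06) and -0.17 late (-0.33 to -0.01, unadjusted p = 0.0406, limma adjusted p = 0.217). These intervals leave room for a late fall of both genes by up to 0.33 and for no intermediate rise above 0.09. Late, 0 of 4 standard members were called and 2 had an unadjusted p under 0.05, where 8.73% of all genes were called, 4.51% higher and 4.22% lower. Early, 0 of 4 were called and 0 had an unadjusted p under 0.05, where 1.49% of all genes were called. Counts of 0 among 4 are near these shares. In that early window 2 of the 4 inducible members were called, against 1.44% of genes called higher and 0.0482% called lower.

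Psmb6, the counterpart of Psmb9, ran from 7.02 to 8.25 on cytokine arrays (median 7.68), against 6.86 to 9.10 on control arrays (median 7.54). The control reading of 9.10 came from the replicate 1 array at 0 h, and the other 14 control arrays lay at 8.04 or below. Differences were 0.14 early (-0.33 to 0.61), 0.28 intermediate (-0.16 to 0.73) and 0.14 late (-0.24 to 0.52), so an increase of up to 0.73 cannot be set aside in the intermediate window. At 0 h it differed by -0.63, and without the control replicate 2 array it was called lower (-1.43, limma adjusted p = 0.0309). Psme3, the nuclear PA28 gamma subunit, ran from 10.04 to 10.71 on cytokine arrays (median 10.31), against 10.28 to 10.58 on control arrays (median 10.47). It differed by -0.03 early (-0.24 to 0.18), -0.19 intermediate (-0.40 to 0.01) and -0.13 late (-0.31 to 0.04). The RefSeq table also lists pseudogenes named after Psme1, Psmb6, Psmb7 and Psme3 and a gene named Psmb6l1, and binding of their transcripts to these probes was not tested.

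Because each inducible subunit has a standard counterpart on the same array, the change in their within-array difference was tested too, with an exact two-sided permutation test that exchanged treatment labels within each time. Of 5 listed pairs 4 were measured, which gave 12 tests in 3 windows. In the intermediate window the change was 4.06 for Psmb8 against Psmb5, 4.02 for Psmb9 against Psmb6, 2.69 for Psmb10 against Psmb7 and 1.95 for Psme1 against Psme3. Each stood at the smallest p that the 54 arrangements allow (exact permutation p = 0.0185, adjusted p = 0.0247 over the 12 tests). Late, the changes were 3.28, 3.56, 2.27 and 1.79 for the same pairs in the same order, each at the smallest p that 243 arrangements allow (exact permutation p = 0.00412, adjusted p = 0.0123). In the early window Psmb9 against Psmb6 changed by 1.81 (exact permutation adjusted p = 0.0247) and Psme1 against Psme3 by 0.48 (adjusted p = 0.0444). The Psme1 call was lost in 8 of 10 tests that each left out 1 early array, with an exact permutation adjusted p of up to 0.242 and a change of 0.11 without the control 4 h array, and that of Psmb9 without the control 2 h or 4 h array (0.0741 each). Psmb8 against Psmb5 changed by 1.32 and Psmb10 against Psmb7 by 0.93, which did not pass the test (exact permutation adjusted p = 0.0741 each). The intermediate and late windows thus held unequal changes within all 4 measured pairs, with the inducible gene changing upward relative to its counterpart.

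The cytokine arrays of 1 time did not always stand level. Replicate 2 exceeded replicate 1 at 4 h by 0.91 in Psmb8, 0.90 in Psmb9, 0.34 in Psmb10 and 0.33 in Psme1. The 5th and 95th percentiles of all genes at 4 h were -0.49 and 0.44, and the gaps of Psmb10 and Psme1 lay within them. At 72 h replicate 2 was below replicate 1 by a difference of -1.24 in Psmb8, -1.09 in Psmb9, -1.11 in Psmb10 and -0.59 in Psme1, where the 5th and 95th percentiles of all genes were -0.46 and 0.43. Averaged over the 5 late times the gap was -0.84 in Psmb8, -0.68 in Psmb9, -0.81 in Psmb10 and -0.28 in Psme1. Of all genes 0.11%, 0.22%, 0.14% and 3.91% had a more negative late gap than these 4 in turn. The late gaps of the standard members lay between -0.21 and -0.03, and Psmb7 and Psme3 were lower on replicate 2 at all 12 times. With replicate 1 of the cytokine arm alone, a comparison added after the data were seen, the late difference was 3.53 in Psmb8, 4.04 in Psmb9, 2.51 in Psmb10 and 1.80 in Psme1. With replicate 2 alone it was 2.69, 3.36, 1.70 and 1.51 in the same order, and limma called all 4 genes in both. The labels tie neither replicate number to 1 of the 2 occasions on which the experiments were done, and the part of occasion in these gaps was not tested.

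**Figure D3:**
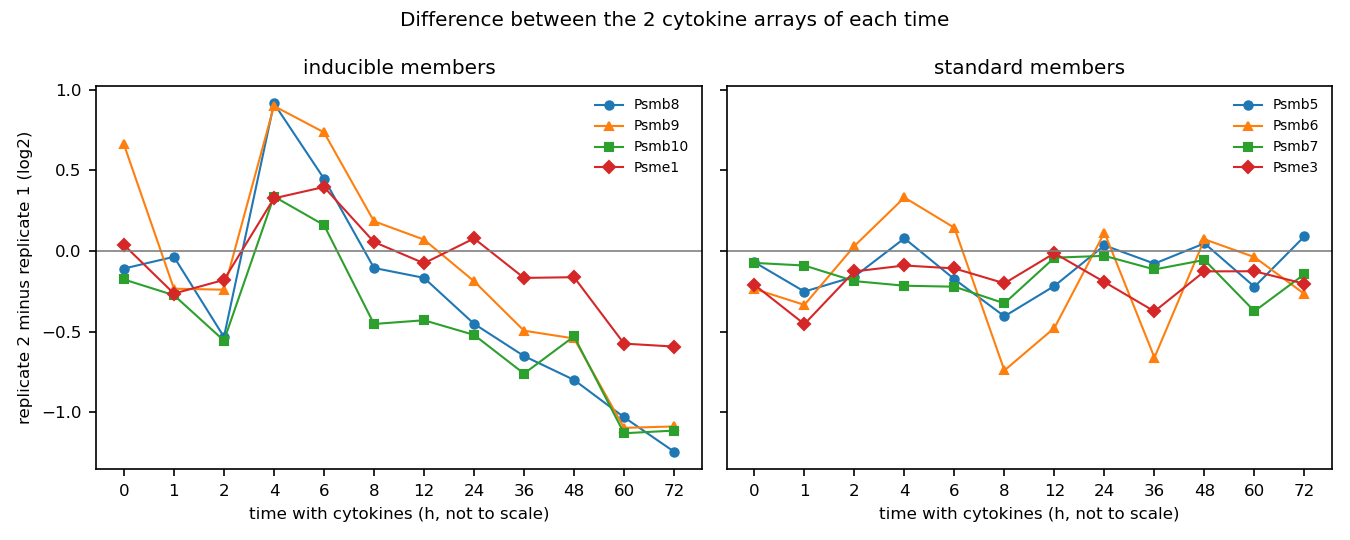
Replicate 2 minus replicate 1 in log2 units for the cytokine arrays at each of the 12 times with both arrays, for the inducible members (left) and the standard members (right). The inducible members go from above 0 at 4 and 6 h to as low as -1.24 at 72 h, while the standard members stay between -0.74 and 0.33.

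The rest of the core particle was followed with a list of other 20S subunits, 11 of 13 measured. limma called 6 of 11 higher in the intermediate window, where 4.94% of all genes were called higher, and the 6 were all alpha subunits, which form the outer rings and gate the barrel. Psma7 rose by 0.54 (1.46-fold, SE 0.07, adjusted p = 1.13e-05), Psma1 by 0.52, Psma2 by 0.47, Psma5 by 0.44, Psma4 by 0.43 and Psma6 by 0.32. The beta subunits Psmb2 (0.23, adjusted p = 0.0663), Psmb1 (0.19, 0.0905), Psmb4 (0.00), Psmb3 (-0.06) and Psmb11, the thymus-specific catalytic subunit (-0.17), did not pass. Psmb2 did pass with the dimmest genes left out, trended moderation or array weights (limma adjusted p between 0.0323 and 0.0473). Psmb1 passed with the replicate block (0.0379). No test compared the alpha with the beta subunits. Late, 3 of 11 were called higher, against 4.51% of all genes, Psma2 by 0.32, Psma1 by 0.30 and Psma7 by 0.24. Early, limma called 0 of 11 and 4 had an unadjusted p under 0.05, where 1.44% of all genes were called higher. The median differences of the list were 0.13 early, 0.32 intermediate and 0.12 late, against -0.02, -0.03 and -0.04 over all genes. Psma6 was close to the threshold (limma adjusted p = 0.0448) and lost its call in 13 of 40 fits that each left out 1 array. Without the control 6 h array Psma4 lost its call (adjusted p = 0.0651). Psma1 and Psma7 lost their late calls without the control 24 h array (0.125 and 0.0881). With the additive model on replicate 1 arrays, Psma6 lost its intermediate call (limma adjusted p = 0.0852) and Psma1 its late call (0.0728). With cytokine replicate 2 arrays only, 3 of the 11 were called in the intermediate window.

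The 19S regulatory particle, which recognises and unfolds tagged proteins, was called in 1 gene in 1 window. limma called 0 of 23 measured subunits early (0 at an unadjusted p under 0.05) and 0 intermediate (1, Psmd11 at -0.25, adjusted p = 0.133). Late it called 1, the ATPase gene Psmc5, which fell by 0.26 (SE 0.06, adjusted p = 0.00995, and 0.0512 without the control 36 h array). Of all genes 1.49% were called early, 9.05% intermediate and 8.73% late. Late, 4.22% of all genes were called lower, and 1 call among 23 is near that share. Medians of the 23 subunits were 0.03, -0.07 and -0.09. Of the other regulators and assembly chaperones, 5 of 8 measured, limma called 0 in each window (0, 2 and 2 at an unadjusted p under 0.05). The shares of all genes called were again 1.49%, 9.05% and 8.73%, and a count of 0 among 5 is near them. Pomp, the chaperone that guides beta subunits into the growing particle, came closest, at 0.32 in the intermediate window (adjusted p = 0.0581), and it passed with quantile normalization, array weights, trended moderation or the dimmest genes left out (adjusted p between 0.0356 and 0.0487).

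**Figure D4:**
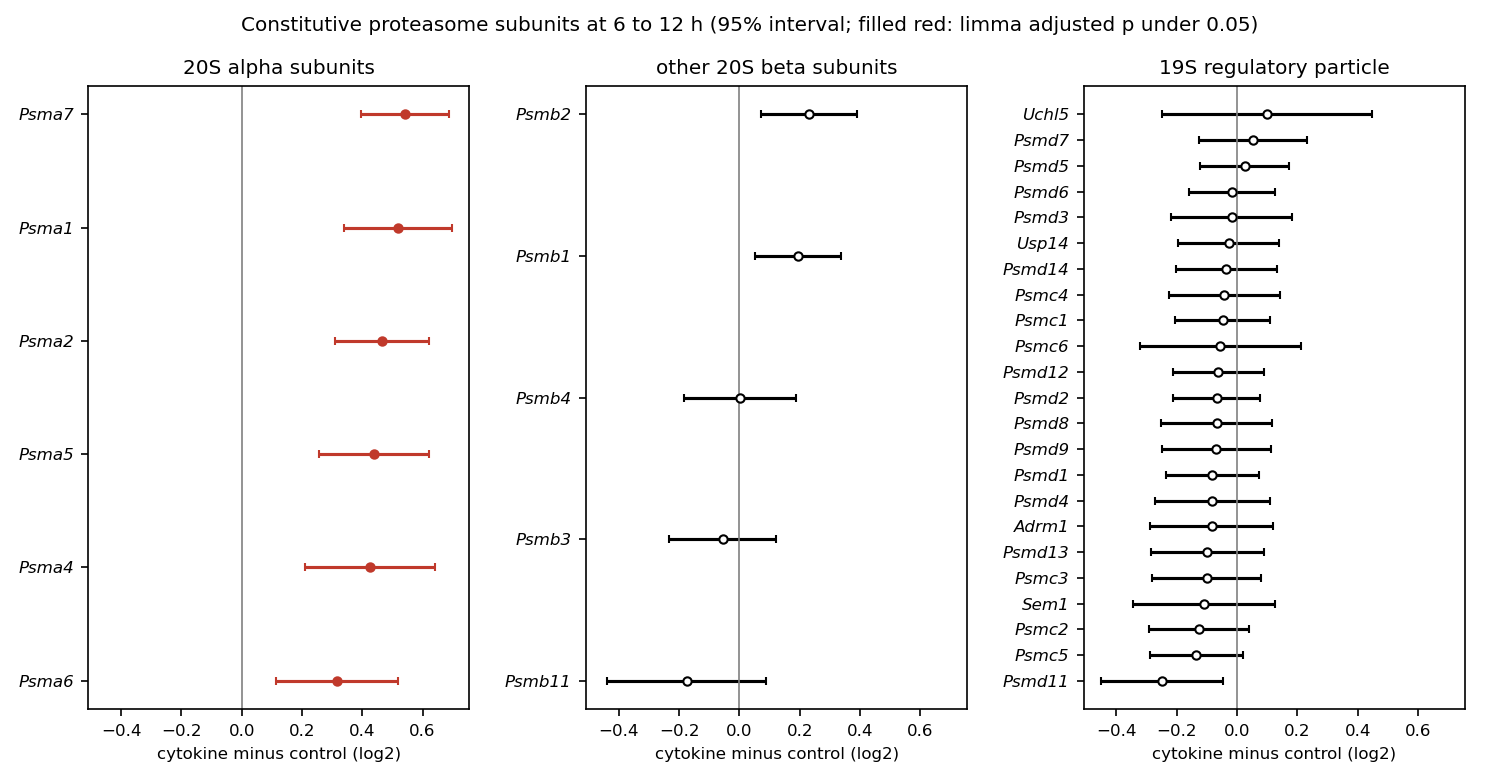
Cytokine minus control difference in log2 units at 6 to 12 h for 20S alpha subunits, other 20S beta subunits and 19S subunits, as the limma estimate with its 95% interval, with filled red points for genes past an adjusted p of 0.05. The 6 called genes are alpha subunits between 0.32 and 0.54, and the 19S subunits lie between -0.25 and 0.10.

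Of 10 measured genes that act beside the immunoproteasome in supplying peptides to MHC class I, limma called 5 higher early, 6 intermediate and 6 late, where 1.44%, 4.94% and 4.51% of all genes were called higher. The other 4 were called in none of these windows, with intermediate differences of 0.20 in Pdia3, 0.05 in Calr and -0.05 in Canx, which help class I molecules fold, and of -0.29 in the aminopeptidase gene Lnpep. Tap1, whose gene lies between Psmb8 and Psmb9, rose by 3.27 early, 4.54 intermediate (23.3-fold) and 3.55 late, and was called in each window. Its partner Tap2, on the other side of Psmb8, rose by 0.85, 2.61 and 1.51. B2m, the class I light chain, rose by 1.75, 3.15 and 3.17, and Tapbp (tapasin), which loads peptides, by 0.62, 2.06 and 1.79. Tapbpl, a tapasin relative, rose by 0.85, 2.69 and 1.68. Erap1, which trims peptides in the endoplasmic reticulum, was called in the intermediate (1.40) and late (1.14) windows. The early calls of Tap2, Tapbp and Tapbpl were lost in the additive model on the early arrays (adjusted p = 0.753, 0.392 and 0.696) and without the control 4 h array (0.934, 0.612 and 0.791). With that model on replicate 1 arrays, these 3 early calls were lost (adjusted p of at least 0.582), as was that of B2m (0.0931).

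Of transcription factors known to act on these genes, 7 of 9 were measured. Irf1, the interferon-induced activator of Psmb8, Psmb9 and Tap1, rose by 4.24 early (18.9-fold), 3.82 intermediate (14.1-fold) and 2.64 late (6.22-fold). Irf2 rose by 0.51, 0.91 and 0.56. Nfkb1 rose by 0.87 intermediate and 0.59 late. Nfe2l1, which drives standard proteasome genes when proteasome capacity is short, rose by 0.38 in the intermediate window (limma adjusted p = 0.0204, but 0.185 without the control 12 h array and 0.0578 without the control 8 h array). Rela (0.23) and Nfe2l2 (0.37) were called late, at adjusted p = 0.0364 and 0.0480, and lost that call in 10 and 19 of 40 fits that each left out 1 array. The early call of Irf2 was lost in 4 such fits, with a difference of 0.20 without the control 4 h array. In all 2, 4 and 5 of the 7 were called higher in the early, intermediate and late windows. Of all genes 1.44%, 4.94% and 4.51% were. With the additive model on replicate 1 arrays the early call of Irf2 (limma adjusted p = 0.593), the intermediate call of Nfe2l1 (0.151) and the late call of Nfe2l2 (0.145) were lost.

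Across the 26 means of treatment and time, the inducible members followed one another closely, with Pearson r between 0.959 and 0.984, and the standard members less so, between 0.211 and 0.798. Against the inducible members, Psme3 gave r between -0.735 and -0.592, Psmb5 and Psmb7 between -0.455 and -0.259, and Psmb6 between 0.045 and 0.167. Among 1917 genes whose group means span at least 1 log2 unit, the 10 most like the mean of the standardised inducible members were Tapbp (r = 0.993), LOC100362709 (0.988), C1r (0.988), RT1-CE10 (0.988), RT1-CE7 (0.987), Ubd (0.986), Serping1 (0.984), RT1-CE1 (0.981), Erap1 (0.979) and B2m (0.978). The RT1-CE genes encode MHC class I heavy chains, and near-identical family members may bind each other's probes. C1r encodes a complement protease and Serping1 its inhibitor. For single members the closest gene was Tapbp for Psmb8 (0.991) and Psme1 (0.984), Serping1 for Psmb9 (0.988) and Tapbpl for Psmb10 (0.986). For the standard members it was hist1h2ail2 for Psmb5 (0.875), Gclm for Psmb6 (0.709), Uxt for Psmb7 (0.918) and Qdpr for Psme3 (0.895). These correlations describe the same 26 groups and arrays and carry no test.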

How the data were processed

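The deposited table gives a log2 signal for every probe set on every array, and the authors' values were taken unchanged. The log2 scale was read from the values, between 2.27 and 14.46. How raw intensities were turned into them is not given in the sources used here. Of 19239 probe sets, 16592 carried a gene symbol in the platform annotation, and the brightest probe set of a symbol was kept (16587 genes). The number of arrays limits the precision.

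Differences were fitted with limma 3.58.1 in R 4.3.3 (statmod 1.5.0), with 1 coefficient for each of 26 groups of treatment and time on all 40 arrays (14 residual and 6.05 prior degrees of freedom). Groups of 1 array borrow their spread from the groups of 2. Windows weighted times equally, p-values were Benjamini-Hochberg adjusted over all genes, and genes were called at 0.05. Pair changes were tested by exact permutation. The fit was tested on simulated data.

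The members and gene lists were chosen with earlier results of these data known. Named genes were the members, up to 4 called genes of each list and window with the smallest p (up to 2 where none was called), and the genes most like the members across group means; list genes beyond these were named after their values were seen. Labels do not say that replicates came from separate cultures, so p-values may measure technical spread only. One characteristic of the cytokine samples names IFN-beta beside IFN-γ, and the extraction text speaks of islets, whereas titles, treatment text and cell line labels were followed. Alternatives were a replicate block, quantile normalization, centring, a filter on dim genes, the mean of probe sets, trended robust moderation, array weights, additive models on the arrays of a window, and each array left out. Some listed genes are not reported here.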

Additional observations from a re-analysis of the deposited data

Results flagged for a closer look

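The 4 inducible members were each noted because the cytokine minus control difference changed between time windows by a test of that change itself. The intermediate difference (6 to 12 h) exceeded the early one (1, 2 and 4 h) by 2.63 in Psmb8, 2.35 in Psmb9, 1.64 in Psmb10 and 1.31 in Psme1 on the log2 scale (limma adjusted p = 0.000163, 0.000503, 0.00962 and 0.000323). All 4 held their call in the fits that each left out 1 array, except Psmb10 without the control 2 h array (adjusted p = 0.0549). Of the 4 standard members 0 met the same test, with changes between -0.16 and 0.14, where 1.07% of all genes were called higher. A count of 0 among 4 is near that share.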

How the results depend on the processing

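Over 240 results on the members and their alternatives, 0 of 11172 values changed direction past the test and 11070 counted as the same. Those 11070 include values called in neither fit, whatever their direction, and counts that moved by up to 1.5 times. Of the rest, 22 passed the threshold newly, 71 lost it and 9 counts moved by over 1.5 times. The intermediate and late calls of the 4 inducible members held under every alternative run, and the standard members were called in none of the 3 windows. The count of inducible members called early, 2 as reported, was 1 with the additive model on the early arrays and 0 with it on replicate 1 arrays. At 4 h it was 2, not 4, with cytokine replicate 1 arrays only, an alternative chosen after seeing the data. All genes called early numbered 247 as reported, 45 and 20 with those additive models, 147 with cytokine replicate 1 arrays only and 96 without the control 4 h array. Among the other windows, 1501 genes were called in the intermediate one and 988 with the additive model on replicate 1 arrays. For single times, the count of all genes called ranged over these alternatives from 0 to 92 at 0 h (0 reported), 8 to 52 at 1 h (17), 59 to 122 at 2 h (93), 176 to 398 at 4 h (268), 240 to 455 at 6 h (320), 224 to 484 at 8 h (310), 289 to 456 at 10 h (314), 219 to 638 at 12 h (371), 172 to 543 at 24 h (357), 69 to 343 at 36 h (203), 42 to 227 at 48 h (118), 34 to 175 at 60 h (92) and 89 to 251 at 72 h (123). The change between intermediate and early windows was called in 205 genes (109 to 419), that between late and intermediate in 380 (234 to 634). In control arrays late against 1 to 12 h, 199 genes were called (20 to 842), 65 of them higher, against 109 of 213 with quantile normalization.

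On replicate 1 arrays only, the within-array change of Psmb8 against Psmb5 was 3.94 intermediate and 3.69 late, that of Psmb9 against Psmb6 was 1.61 early, 3.76 intermediate and 3.83 late, that of Psmb10 against Psmb7 was 2.70 and 2.60, and that of Psme1 against Psme3 was 0.42, 1.86 and 1.83. None passed, since that design allows no exact permutation p under 0.25, 0.125 and 0.0625 in the 3 windows. With each array left out in turn, the intermediate changes ranged from 3.95 to 4.23, 3.87 to 4.31, 2.62 to 2.77 and 1.85 to 2.01 for these pairs in order, and lost their calls without the control 6, 8 or 12 h array, where fewer arrangements remain (adjusted p = 0.0667). The early changes ranged from 0.56 to 1.46, 1.12 to 2.15, 0.36 to 1.04 and 0.11 to 0.63, lowest without the control 4 h array. Counts of inducible members called ranged from 1 to 3 early, from 2 to 4 at 4, 48 and 60 h and from 1 to 4 at 72 h, with the low values without the control 4 h array, cytokine 4 h replicate 2, and cytokine replicate 1 at 48, 60 and 72 h. Standard members called lower at 0 h ranged from 0 to 1.

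With the replicate number as a block, 3 inducible members were called early, since Psmb10 gave 1.06 (limma adjusted p = 0.000739), and Psmb10 at 72 h gave 2.06 (adjusted p = 0.000914). The block called 318 genes early, 1965 intermediate and 1780 late. The labels do not say whether equal replicate numbers pair the arrays. Replicate differences of 2 groups correlated between -0.172 and 0.432 over 91 pairs of groups (median 0.206, with 68 of them over 0.1). Between cytokine and control groups they correlated at 0.237 (0 h) and 0.432 (1 h), where alone both arms hold both numbers. Arrays of equal replicate number thus shared part of their differences in most pairs of groups, and the main fit had no term for this.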

Other observations

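Ubiquitin-like modifiers, which tag proteins beside ubiquitin itself, rose in most of the listed cases. limma called 6 of 9 higher early, 8 intermediate and 8 late, where 1.44%, 4.94% and 4.51% of all genes were called higher. Ubd (FAT10), a modifier that leads its targets to the proteasome, rose by 2.73 early, 5.47 intermediate (44.3-fold, SE 0.20, adjusted p = 4.93e-14) and 4.44 late. Isg15, the interferon-induced modifier, rose by 0.99, 3.69 and 0.97, and Usp18, the protease that removes it, by 1.74, 4.47 and 1.73. Its activating enzyme Uba7 rose by 0.59, 1.61 and 0.74, its conjugating enzyme Ube2l6 by 1.00, 2.41 and 1.40, and the ligase gene Herc6 by 1.30, 4.00 and 1.45. Nub1, which helps deliver Ubd conjugates to the proteasome, rose by 1.19 intermediate and 0.56 late, and Ube2z, a conjugating enzyme for Ubd, by 0.35 and 0.24. In the early window 0 of these calls held in the additive model on the early arrays or on replicate 1 arrays alone. Without the control 4 h array the early differences were 0.62 in Ube2l6, 0.23 in Herc6 and 0.70 in Usp18 and did not pass, and the early calls of Isg15 and Uba7 were lost in 10 and 15 of 40 fits that each left out 1 array. The late calls of Nub1 and Ube2z were lost without the control 24 h or control 36 h array, and that of Ube2z also without the control 48 h array. With the additive model on replicate 1 arrays Ube2z lost its intermediate and late calls (limma adjusted p = 0.0608 and 0.108).

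Peptidases that shorten or destroy peptides after the proteasome moved little. Of 7 measured, limma called 0 early (1 at an unadjusted p under 0.05, Nrdc at 0.16), 1 higher intermediate and 1 lower late. Of all genes 1.49% were called early, 4.94% higher intermediate and 4.22% lower late. Counts of 0 or 1 among 7 genes were not tested against those shares. Lap3, an aminopeptidase, rose by 0.46 in the intermediate window (adjusted p = 0.0166), a call lost without the control 6 h array (0.133) and without the control 10 h or cytokine 10 h array (0.0556). Prep, a prolyl peptidase, fell by 0.25 late (adjusted p = 0.0408), a call lost in 11 of 40 fits that each left out 1 array and with the additive model on replicate 1 arrays (limma adjusted p = 0.251), the replicate block (0.0774) or arrays centred on their medians (0.0577).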
